A study of Mus musculus with 9 samples.

Results

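The 6 miRNA precursors of immune cells, mmu-mir-142a, mmu-mir-146a, mmu-mir-146b, mmu-mir-150, mmu-mir-155 and mmu-mir-223, were followed across small RNA libraries of mouse atrial appendages. They were chosen by name as miRNAs of blood leukocytes, and all 6 were found among the 661 miRNA precursors and 996 small RNA features that held reads. The series asked about curcumin, a polyphenol of turmeric, and small RNA in the ageing atrium, and its 9 libraries formed 3 groups of 3. The curcumin group was C57BL/6 mice of 18 months that had received 100 mg/kg of curcumin daily in skim milk between 12 and 18 months of age, the old group was untreated C57BL/6 mice of 18 months, and the young group was untreated C57BL/6 mice of 5 months. The labels do not say whether untreated mice were given the milk, nor whether a library came from 1 mouse. P-values therefore measure the spread between libraries.

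A miRNA is cut from a hairpin precursor, and its seed, bases 2 to 8 from the 5′ end, pairs with target mRNAs and lowers their translation and stability. miR-142 is made in all blood lineages and little elsewhere, miR-223 marks neutrophils and monocytes, and miR-150 marks mature B, T and NK cells, where it restrains the transcription factor Myb. miR-155 is switched on in activated lymphocytes and macrophages and represses Socs1, an inhibitor of cytokine signalling. The miR-146 pair is induced by NF-κB and represses the adaptors Traf6 and Irak1, a negative feedback on Toll-like receptor signals. In heart tissue such miRNAs can come from resident macrophages, from blood left in the chambers or, for miR-146a, from cells of the heart itself. In bulk tissue, more cells of a type and more RNA per cell cannot be told apart.

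The mature sequences in RefSeq (GRCm38.p6) are shown to tell which of these miRNAs share a seed and which share so much sequence that reads may be split between them. Capitals mark the seed.
mmu-miR-142a-3p: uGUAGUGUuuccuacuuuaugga
mmu-miR-142a-5p: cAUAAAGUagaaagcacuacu
mmu-miR-142b: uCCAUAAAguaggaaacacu
mmu-miR-223-3p: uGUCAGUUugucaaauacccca
mmu-miR-155-5p: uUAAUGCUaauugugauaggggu
mmu-miR-146a-5p: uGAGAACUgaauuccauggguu
mmu-miR-146b-5p: uGAGAACUgaauuccauaggcu
miR-146a-5p and miR-146b-5p have the same seed and the same first 17 bases. They differ by the substitutions G18A and U21C, with the miR-146a base first and positions counted from the 5′ end. Reads that end before these positions match both, and the files hold counts that are not whole, as when such reads are divided, so the level of miR-146b in particular is uncertain. No other pair of the printed miRNAs shared a seed. miR-142b is read from the opposite strand of the miR-142a locus, and 20 of its bases match the reverse complement of miR-142a-3p, but no library held a read assigned to it. The files count precursors, so the 2 arms of a hairpin are not separated.

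The loci lie apart in the genome (mm10, GENCODE annotation). mir-142a is at chromosome 11, 87756864 to 87756927, on the plus strand within an intron of the long non-coding RNA Mir142hg, and mir-146a is on the same chromosome at 43374397 to 43374461, on the minus strand, overlapping no annotated gene. mir-146b is at chromosome 19, 46342762 to 46342870, on the plus strand in an intron of the protein-coding gene Mfsd13a. mir-150 is at chromosome 7, 45121757 to 45121821, on the plus strand, and overlaps no annotated gene. mir-155 is at chromosome 16, 84714140 to 84714204, in an exon of its host RNA Mir155hg, and mir-223 is at chromosome X, 96242817 to 96242926, in an exon of the non-coding RNA F630028O10Rik, both on the plus strand.

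Libraries held 12899427 to 19707803 clean reads, the reads left after adapter trimming, of which 210212 to 918466 were miRNA reads. The miRNA share of clean reads was 3.65% ± 0.519 in the curcumin group, 2.30% ± 1.05 in the old group and 2.63% ± 1.78 in the young group (SD, n = 3 each), and the highest library had 3.80 times the share of the lowest. Levels are given as RPM, reads per 1000000 clean reads, which move with the whole miRNA class, and as miRNA RPM, reads per 1000000 miRNA reads, which do not. The tissue label was met by heart muscle miRNAs, which took 307032 to 431014 of every 1000000 miRNA reads. The 3 libraries numbered 1, 1 of each group, stood apart from the others: the genome matched 72.7%, 72.2% and 73.7% of their clean reads in the curcumin, old and young groups, and 65.0% to 68.3% in the other 6 libraries. The labels give no reason for this. Among pairs of libraries from different groups with number 1, the deviations from the group means correlated at 0.27 to 0.81 over features, against −0.07 to 0.62 for number 2 and 0.27 to 0.37 for number 3.

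All 6 miRNAs were read in all 9 libraries, with 13.5 to 5457 reads each, and all passed the filter on low counts. By mean RPM over the libraries, miR-146a ranked 39 among the 661 miRNA precursors at 81.8, miR-142a ranked 44 at 67.5 and miR-223 ranked 61 at 33.3. miR-150 at 5.25, miR-155 at 3.43 and miR-146b at 3.13 ranked 115, 130 and 137. The 6 together made up 0.484% to 1.03% of the miRNA reads of a library. Counting error, as 95% Wilson intervals, was 2.65% to 13.4% of the value to either side for miR-142a, miR-146a and miR-223, and 15.7% to 56.2% for miR-150, miR-155 and miR-146b. Such intervals leave out all other error, and PCR copies of 1 molecule may be counted as separate reads.

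miR-142a, the miRNA of all blood lineages, differed most between libraries of 1 group. In the curcumin group it was at 72.0, 70.8 and 52.0 RPM in replicates 1 to 3, in the old group at 52.0, 22.0 and 24.7, and in the young group at 277, 15.7 and 21.7. Young replicate 1 was the highest of all libraries and the other young libraries were the lowest, so the young group enclosed both other groups. In miRNA RPM, the levels were 2245, 1678 and 1473 in the curcumin group, 1566, 1789 and 1045 in the old group and 5941, 1165 and 1152 in the young group. By group mean per clean read the order was young, curcumin, old, and no neighbours in it were separated beyond the spread of their libraries.

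miR-223, the miRNA of neutrophils and monocytes, had the same high library. It stood at 43.5, 44.2 and 30.7 RPM in the curcumin group, at 28.8, 13.0 and 21.0 in the old group and at 86.1, 13.8 and 18.2 in the young group. Every curcumin library was above every old library, by a gap of 30.7 against 28.8 at the closest. Its miRNA RPM were 1356, 1047 and 872 in the curcumin group, 869, 1057 and 886 in the old group and 1847, 1028 and 967 in the young group, and there the curcumin and old groups overlapped. The mean was 39.5 ± 7.57 RPM in the curcumin group and 39.4 ± 40.5 RPM in the young group, with 1 young library above all others and the other young libraries below every curcumin library.

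**Figure D1:**
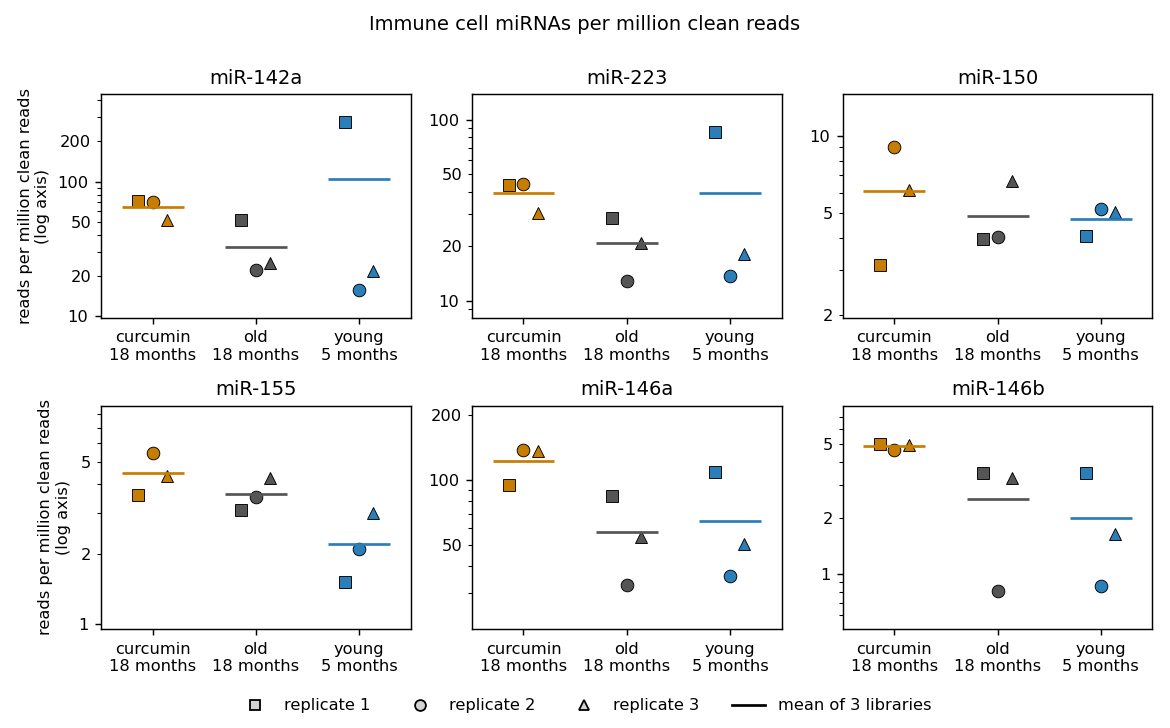
Level of each miRNA precursor in RPM (log axis) in each library of the curcumin, old and young groups; symbols give the replicate number and bars the mean of 3 libraries. Young replicate 1 is far above the other young libraries for miR-142a (277) and miR-223 (86.1), and below them for miR-150 (4.06) and miR-155 (1.52).

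In young replicate 1, miR-142a was at 14.8 times the mean of the other young libraries per clean read and 5.13 times per miRNA read. The excess of miR-223 there was 5.38 times and 1.85 times. miR-150 and miR-155 were low in the same library, miR-150 at 0.795 times and miR-155 at 0.593 times the mean of the others per clean read, and at 0.267 and 0.206 times per miRNA read. The 4 precursors listed as red blood cell markers did not move together here. miR-451a was at 22.5 times and miR-144 at 20.6 times the mean of the other young libraries per clean read. miR-486a was at 0.852 times and miR-486b at 0.889 times. Per miRNA read these were 8.44, 7.39, 0.301 and 0.314 times. The endothelial miR-126a was at 2.99 times and the heart muscle miR-1a-1 at 3.31 times per clean read, and at 1.03 and 1.16 times per miRNA read. The summed level of the 4 listed red cell markers mixes these unlike patterns. It was 24.6 to 57.6 RPM in the curcumin group, 36.5 to 42.5 in the old group and 38.1 to 296 in the young group. None of the 4 was at 0. The part of blood in the levels of miR-142a and miR-223 was not tested.

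The reads of miR-142a for each read of miR-223 numbered 1.13 to 1.80 in 8 libraries and 3.22 in young replicate 1. For each read of miR-150 there were 22.9, 7.85 and 8.43 reads of miR-142a in the curcumin group, 13.1, 5.44 and 3.73 in the old group and 68.2, 3.02 and 4.31 in the young group. In each group, the library numbered 1 had the highest ratio of these 2 miRNAs.

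**Figure D2:**
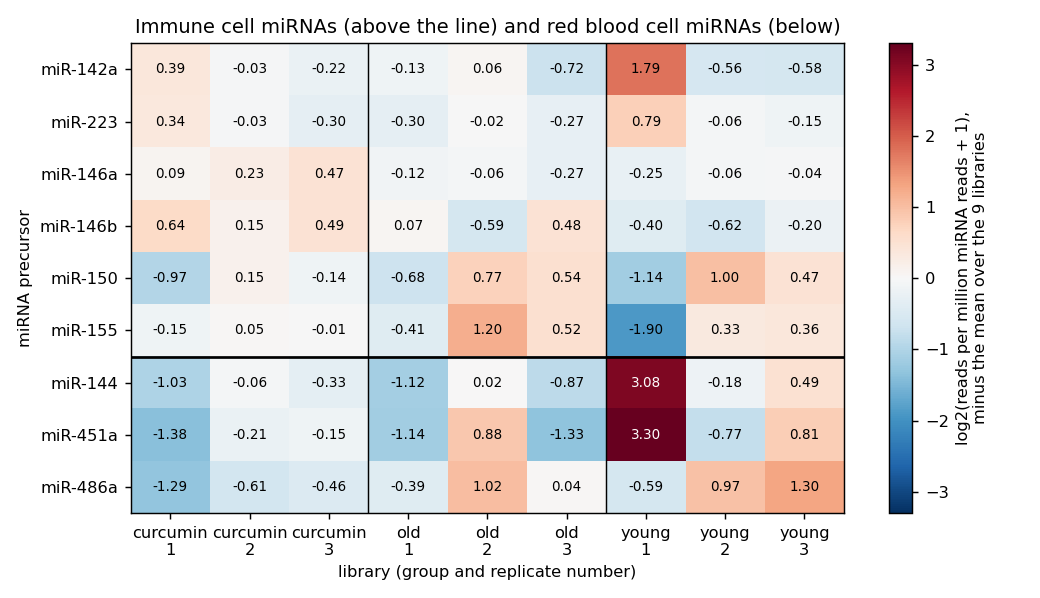
Each cell gives log2(miRNA RPM + 1) of 1 miRNA precursor in 1 library minus its mean over the 9 libraries, with the immune cell miRNAs above the line and red blood cell miRNAs below it. In young replicate 1, miR-142a (1.79), miR-223 (0.79), miR-144 (3.08) and miR-451a (3.30) are above their means. There miR-150 (−1.14), miR-155 (−1.90) and miR-486a (−0.59), which was also listed as a red blood cell marker, are below.

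miR-150, the miRNA of mature lymphocytes, kept a narrow range per clean read. Its levels were 3.14, 9.03 and 6.16 RPM in the curcumin group, 3.97, 4.04 and 6.63 in the old group and 4.06, 5.17 and 5.04 in the young group. All groups overlapped, and the highest library had 2.87 times the level of the lowest. In miRNA RPM the curcumin group had 98.0, 214 and 175, the old group 120, 329 and 280, and the young group 87.1, 385 and 267. On both scales each library numbered 1 was the lowest of its group.

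miR-155, the miRNA of activated lymphocytes and macrophages, had the fewest reads after miR-146b, 30 to 94 in a library. It was at 3.60, 5.44 and 4.34 RPM in the curcumin group, at 3.10, 3.52 and 4.24 in the old group and at 1.52, 2.11 and 3.02 in the young group. The order of the means was curcumin, old, young. Young libraries were all below the libraries of both other groups, while curcumin and old libraries overlapped. The gap at the closest was 3.02 against 3.10, in young replicate 3 and old replicate 1, from 39 and 50 reads. Their 95% Wilson intervals, 2.21 to 4.13 and 2.35 to 4.09, overlapped. This separation was gone in miRNA RPM, which were 112, 129 and 123 in the curcumin group, 93.4, 286 and 179 in the old group and 32.7, 157 and 160 in the young group. As for miR-150, each library numbered 1 was the lowest of its group on both scales.

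miR-146a, the NF-κB feedback miRNA, was the most even of the 6 per miRNA read, with 1.67 times between the lowest and the highest library. It was at 95.0, 138 and 136 RPM in the curcumin group, at 84.8, 32.8 and 54.6 in the old group and at 109, 35.9 and 50.8 in the young group. Curcumin libraries were all above the old libraries, and 1 of them was below the highest young library. As miRNA RPM it was at 2962, 3265 and 3861 in the curcumin group, at 2554, 2672 and 2307 in the old group and at 2332, 2671 and 2695 in the young group. On this scale every curcumin library was above every old and every young library, and the old and young groups overlapped. The share of all miRNAs with curcumin libraries above both other groups was not counted.

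miR-146b, which shares the seed of miR-146a, was read at a small part of its level, with 16.6 to 41.6 reads of miR-146a for each of its own. In the curcumin group it was at 5.00, 4.66 and 4.94 RPM, in the old group at 3.47, 0.807 and 3.29 and in the young group at 3.50, 0.862 and 1.63. The curcumin libraries were above all others. The closest were curcumin replicate 2 and young replicate 1, whose 95% Wilson intervals, 3.72 to 5.76 and 2.77 to 4.43 RPM, overlapped. As miRNA RPM the curcumin group had 156, 110 and 140, the old group 105, 65.7 and 139, and the young group 75.1, 64.2 and 86.4, so that the curcumin group was above the young group and overlapped the old group.

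**Figure D3:**
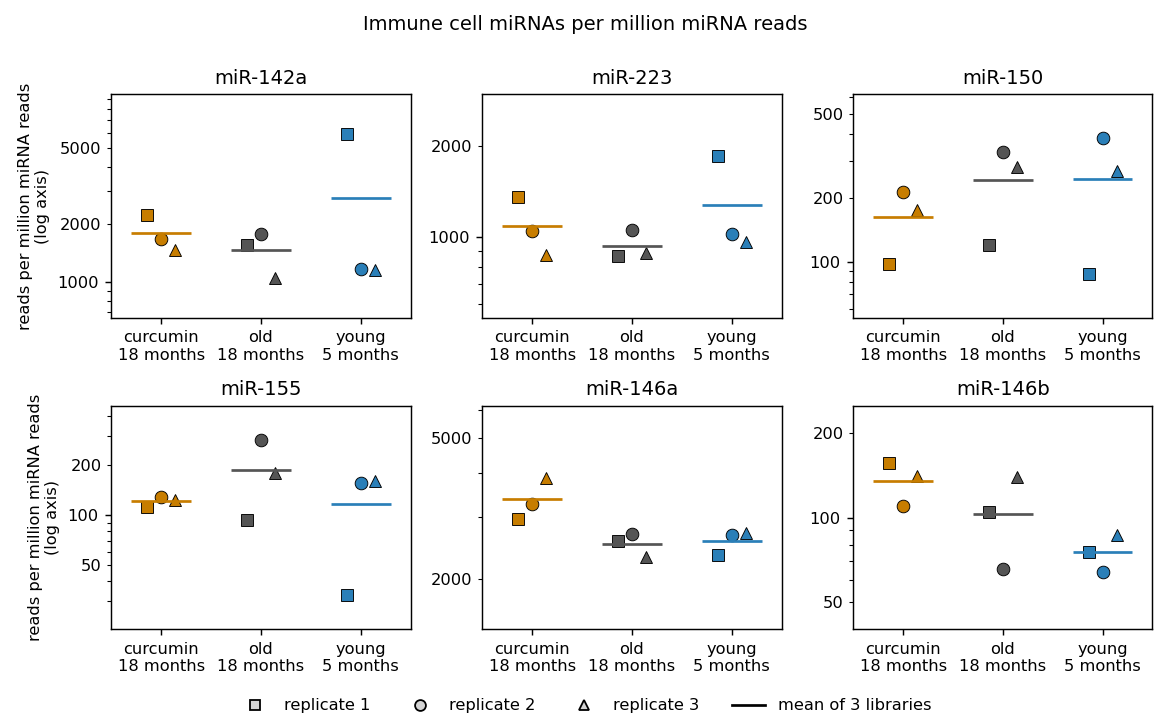
The same libraries with each level in miRNA RPM (log axis); symbols give the replicate number and bars the mean of 3 libraries. miR-146a in the curcumin group (2962 to 3861) is above the old (2307 to 2672) and young (2332 to 2695) groups. miR-150 and miR-155 are lowest in the library numbered 1 of each group.

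Summed over the 6, the level was 243 ± 26.0 RPM in the curcumin group, 122 ± 50.5 in the old group and 218.2 ± 228 in the young group (SD, n = 3 each). The young sum was 481 in replicate 1 and 73.5 and 100.4 in the others. Curcumin libraries held 222 to 272 and old libraries 76.1 to 176, without overlap. The sums in miRNA RPM were 6672 ± 244, 5447 ± 692 and 7038 ± 2839 in the curcumin, old and young groups, and again each curcumin library (6443 to 6929) was above each old library (4837 to 6198). Taken singly, 3 of the 6 were separated in this way per clean read, as were 14.4% of 209 miRNAs. Per miRNA read, miR-146a alone was, as were 4.13% of the miRNAs tested on that scale, and the other 5 overlapped. miR-146a took 42.7% to 58.1% of the sum in 8 libraries, and in young replicate 1 it took 22.6% and miR-142a 57.6%.

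Each comparison was tested by the quasi-likelihood test of edgeR on all 520 features that passed the filter, with TMM scaling, a factor per library that evens out most features, and with Benjamini-Hochberg adjustment. A log2 fold change above 0 means higher in the group named first. In curcumin against old, no miRNA of the 6 passed an adjusted p of 0.05, and 0 of 520 features did (0%). At an unadjusted p under 0.05 there were 21 features (4.04%) by edgeR, and 0 passed adjustment by DESeq2 or limma-voom. All 6 fold changes were above 0, with a median of 0.73, beside 161 of 209 miRNAs (median 0.25) and 294 of all 520 features (median 0.08). miR-146a had the smallest p of the 6, with a log2 fold change of 0.90 ± 0.40 (SE), an unadjusted p of 0.0484 and an adjusted p of 0.917. miR-142a was at 0.77 ± 0.82, miR-146b at 0.76 ± 0.55 and miR-223 at 0.70 ± 0.55, and miR-150 (0.08 ± 0.48) and miR-155 (0.06 ± 0.45) were near 0. The heart muscle precursors tested were also all above 0 (median 0.57), and the endothelial miR-126a was at 0.33.

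The scale set part of these values. With clean-read totals in place of TMM, the median of all features moved up by 0.23 in curcumin against old and by 0.19 in curcumin against young, and the 6 fold changes in curcumin against old had a median of 0.93 beside 0.31 for all features. Fitted per miRNA read among the miRNAs alone, whose median was −0.25, miR-146a was at 0.42 ± 0.18 (edgeR adjusted p = 0.503), miR-146b at 0.37 ± 0.36, miR-142a at 0.30 ± 0.56 and miR-223 at 0.22 ± 0.29, while miR-150 and miR-155 turned to −0.57 ± 0.56 and −0.59 ± 0.57. Curcumin libraries were all above old libraries per clean read for 3 of the 6, miR-146a, miR-146b and miR-223. The same held for 10.6% of the 520 features and 14.4% of the 209 miRNAs. Per miRNA read it held for miR-146a alone of the 6, and for 4.13% of the miRNAs tested on that scale.

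Old against young had no call either, with 0 of 520 features past the adjusted threshold (0%) by edgeR, 5 (0.962%) at an unadjusted p under 0.05, and 0 by DESeq2 and limma-voom. Fold changes of 3 of the 6 were above 0, with a median of −0.04 beside −0.15 over the 209 miRNAs. The value furthest from 0 was that of miR-142a, −1.39 ± 0.83, followed by miR-223 at −0.72 ± 0.55 and miR-155 at 0.69 ± 0.45, all with an edgeR adjusted p of 0.999. Without young replicate 1 miR-142a became 0.62, and it was above 0 in each of the 5 fits run without that library, so its sign rested on it. miR-223 became 0.19 with TMM without young replicate 1, but −0.092 per miRNA read, and without all libraries numbered 1 it was −0.019 with TMM, 0.085 per clean read and −0.041 per miRNA read. miR-155 was the 1 of the 6 whose old libraries were all above the young libraries per clean read, as were those of 2.12% of the features and 1.91% of the miRNAs. Its fold change was between 0.33 and 1.01 when any 1 library was left out.

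Curcumin against young gave 0 of 520 features by edgeR (0%), 19 (3.65%) at an unadjusted p under 0.05, 0 by limma-voom and 1 (0.192%) by DESeq2, a 5′ end of tRNA-His-GTG. Of the 6, 4 were above 0, with a median of 0.42 beside 0.07 over the 209 miRNAs. miR-146b was at 1.17 ± 0.55, miR-146a at 0.81 ± 0.40, miR-155 at 0.74 ± 0.45 and miR-150 at 0.10 ± 0.48, while miR-142a was at −0.63 ± 0.82 and miR-223 at −0.03 ± 0.54, with edgeR adjusted p of 0.942 to 0.994. Without young replicate 1 miR-142a turned to 1.36 and miR-223 to 0.86, and neither passed the threshold. Groups without overlap, higher with curcumin, were found per clean read for miR-146b and miR-155, and for 7.31% of the 520 features and 3.35% of the 209 miRNAs. Per miRNA read they were found for miR-146a and miR-146b, and for 4.13% of the miRNAs tested on that scale. Each of the 3 groups is shared by 2 of the 3 comparisons, so the comparisons are not independent.

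Leaving out the 3 libraries numbered 1, a choice made after seeing the data, left 2 libraries a group and changed the calls. With TMM, miR-146a rose in curcumin against old by 1.40 ± 0.31 on the log2 scale (edgeR adjusted p = 0.00413) and miR-142a by 1.11 ± 0.31 (edgeR adjusted p = 0.0173), 2 of the 6 miRNAs where 14.1% of 519 features passed. In curcumin against young the same 2 rose, miR-142a by 1.34 ± 0.32 (edgeR adjusted p = 0.00564) and miR-146a by 1.31 ± 0.31 (edgeR adjusted p = 0.00633), where 12.9% of features passed. Both also passed with clean-read totals, where 6.33% of 521 features did in either comparison. Per miRNA read 0 of the 6 passed, where 13.1% of 206 miRNAs did in curcumin against old and 19.4% in curcumin against young, and miR-146a in curcumin against old was at 0.52 ± 0.19 (edgeR adjusted p = 0.0819). In these 6 libraries the miRNA share of clean reads was 4.22% and 3.53% in the curcumin group, 1.23% and 2.37% in the old group and 1.34% and 1.88% in the young group. Old against young had no call among all features without these libraries, on any of the 3 scales.

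**Figure D4:**
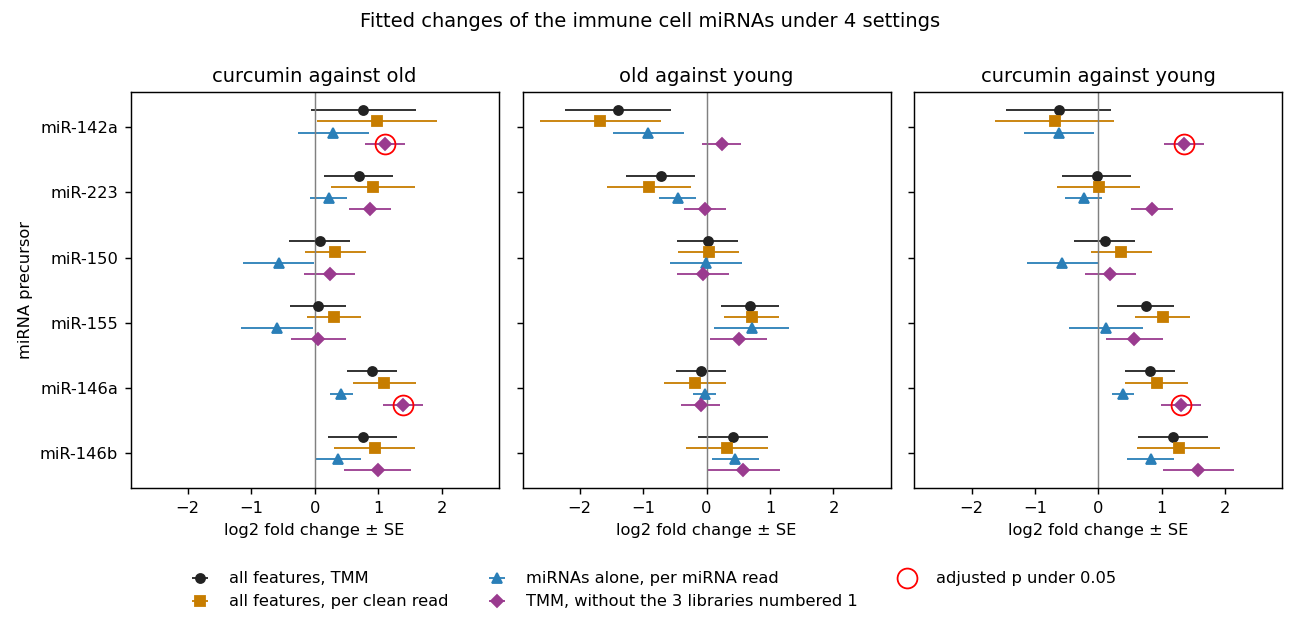
Log2 fold change ± SE of each miRNA in the 3 comparisons, from edgeR fits with TMM, with clean-read totals, with miRNAs alone per miRNA read, and with TMM without the 3 libraries numbered 1; red circles mark an adjusted p under 0.05. Circles stand at miR-142a and miR-146a in both curcumin comparisons without the libraries numbered 1, and miR-142a in old against young moves from −1.39 to 0.24 without them.

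The 6 did not share 1 pattern over the libraries. The spread of log2 levels per miRNA read over the 9 libraries was 0.22 for miR-146a, 0.34 for miR-223, 0.45 for miR-146b, 0.71 for miR-142a, 0.73 for miR-150 and 0.80 for miR-155, beside a median of 0.48 over 204 miRNAs with a mean of at least 10 reads. Likeness was measured as the root mean square difference of centred log2 levels over the 9 libraries, against 203 other miRNAs. The pattern of miR-142a was most like that of miR-15b (0.25) and miR-301a (0.36), with miR-223 at rank 6 (0.43). miR-223 was most like miR-301a (0.15) and miR-17 (0.18). Both miR-142a and miR-223 were furthest from their means in young replicate 1, by 1.79 and 0.79, so their likenesses rest largely on that library. miR-146a was most like miR-143 (0.18) and miR-1a-1 (0.19). As its own spread was only 0.22, a level that did not vary at all would be almost as near. miR-146b was most like miR-152 (0.30) and miR-27b (0.33), with miR-146a at rank 9. miR-150 was most like miR-149 (0.19) and miR-7033 (0.32). miR-155 was most like miR-690 (0.37) and miR-7033 (0.44), with miR-150 at rank 3 (0.47). The libraries share depth and the miRNA total as denominator, and no test was made of these distances.

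Other miRNAs linked to leukocytes or inflammation were counted from a list of 28 precursors, of which 27 had reads and 23 were tested. In curcumin against old 22 had a fold change above 0 and 1 below (median 0.40), in old against young 4 were above and 19 below (median −0.34), and in curcumin against young 11 were above and 12 below (median −0.02). Over the 209 miRNAs, 161 were above 0 in curcumin against old and 69 in old against young, and the medians of the 3 comparisons were 0.25, −0.15 and 0.07. None of the list passed the adjusted threshold of edgeR in any comparison. Some of the list are precursors of the same mature miRNA, such as the 2 of miR-125b. They can share reads, so these counts are not of separate miRNAs. Per miRNA read, curcumin against old gave 9 above and 14 below (median −0.09), or 39.1% above 0, beside 30.7% of all miRNAs (median −0.25), so the list and the miRNAs as a whole both turned with the scale. In the other comparisons the list was below all miRNAs on this scale. The shares above 0 were 21.7% beside 39.9% in old against young, and 17.4% beside 28.0% in curcumin against young. The 3 members with the most reads were the 2 precursors of miR-125b, which share reads, and miR-16-1. mir-125b-1 was at 498 ± 129 RPM in the curcumin group, 417 ± 155.2 in the old group and 393 ± 117.7 in the young group, and mir-125b-2 at 498 ± 129, 415 ± 154 and 391 ± 118.1. mir-16-1 was at 374 ± 41.3 in the curcumin group, 276 ± 78.9 in the old group and 374 ± 299 in the young group (SD, n = 3 each). In curcumin against old their log2 fold changes were 0.06 ± 0.31, 0.07 ± 0.31 and 0.22 ± 0.38, in the order named.

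Markers of other cells were measured beside them. The 4 listed red blood cell markers were all below 0 in old against young (median −1.76) and in curcumin against young (median −1.58). In curcumin against old 2 were above and 2 below 0, and none passed the threshold of edgeR in any comparison. Young replicate 1 set much of these medians, with 1591 reads of miR-144 against 38 and 70 in the other young libraries and 3468 of miR-451a against 47 and 163. Without it the medians were −0.68 and −0.51, and in curcumin against young miR-144 (0.15) and miR-451a (0.04) were above 0. The counts of miR-486a and miR-486b were nearly equal and partly not whole, such as 146.5 to 305.5 and 145.5 to 305.5 in the curcumin group. These 2 precursors may therefore hold largely the same reads and are not separate evidence. The endothelial miR-126a was at 214741 to 281663 miRNA RPM in the curcumin group, 247585 to 268485 in the old group and 220127 to 238274 in the young group. The liver miRNA miR-122 was at 1.37 to 3.92, 0.837 to 1.67 and 1.01 to 2.71 RPM in the curcumin, old and young groups, and 6 epithelial precursors summed to 2.00 to 4.69, 1.27 to 2.91 and 0.958 to 3.33. The 3 neuronal precursors of miR-124 were at 0 in all old and young libraries and summed to at most 0.99 read in a curcumin library. The part of these cell types in the levels above was not tested.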

How the data were processed

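Per the labels' protocols, total RNA of atrial appendages was treated with AlkB and T4 polynucleotide kinase (PANDORA-seq), a gel fraction of 15 to 45 nucleotides was ligated to adapters and sequenced single-end over 75 cycles. The submitters' processing notes name cutadapt 2.5 and mm10; for the annotation tool and for any UMI step, nothing is stated in these sources. The deposited values are expected counts per annotation, not normalized, some of them not whole, as when a read with several matches is divided. Genome-matched and unmatched reads were summed, absent rows taken as 0, class totals left out, and values rounded for testing.

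The quasi-likelihood test of edgeR 4.0.16 was fitted to the 9 libraries at once (R 4.3.3; robust, filterByExpr, TMM, group as the only term), adjusted over 520 features, threshold 0.05. The 2 further scales (clean-read totals, and miRNAs alone per miRNA read), RLE scaling, DESeq2 1.42.0, limma-voom (limma 3.58.1), other filters, genome-matched reads, only the 2 groups compared, a replicate block and omission of single libraries were alternatives. The members, the lists and the rule naming the 2 most similar miRNAs were chosen with earlier results of these data known. Levels for likeness had 1 read per 1000000 miRNA reads added. The fit was tested on simulated data for curcumin against old, where 200 of 520 features were changed. Of those changed by 1, 2 and 3 on the log2 scale, 19.7%, 66.7% and 95.4% were recovered, with 1 call when nothing was changed. The simulated libraries had no effect shared by those numbered 1. Recovery when only a few features change was not tested. Depth limits miR-146b, miR-150 and miR-155 most. Sequences came from RefSeq by miRNA name; 5 of the 6 members had one printed.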

Additional observations from a re-analysis of the deposited data

How the results depend on the processing

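Under the alternatives planned, no comparison gained or lost a call by edgeR, and DESeq2 gave 1 in curcumin against young. DESeq2 gave no p for miR-142a in any comparison, which is how it marks a feature with an outlying count. Fits added after seeing the data gave more. Without the libraries numbered 1, curcumin against old had 73 calls with TMM, 33 per clean read and 27 per miRNA read, and curcumin against young had 67, 33 and 40. Without young replicate 1 per miRNA read, curcumin against young had 31, with 0 of the 6 among them, and a term for the libraries numbered 1 gave 1, the CCA end of mitochondrial tRNA-Leu-TAG. The cause was not tested. The summed level of the 6 was 6672 ± 244 miRNA RPM in the curcumin group, 5447 ± 692 in the old group and 7038 ± 2839 in the young group (SD, n = 3 each). The young mean rested on replicate 1 at 10315, with 5471 and 5329 in replicates 2 and 3. The replicate block changed no call (0 in all 3 comparisons, with 41, 5 and 40 features at an unadjusted p under 0.05). Replicate numbers are not stated to pair the libraries: same-number correlations ran from −0.07 to 0.81, and 6 of 9 libraries correlated best with their own number.

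Signs of the log2 fold changes turned as follows, with no call on either side except for miR-142a in curcumin against young without the libraries numbered 1. In curcumin against old, miR-150 was −0.57 per miRNA read, −0.33 with miRNAs alone under TMM, −0.0011 by limma-voom, −0.64 per miRNA read without the libraries numbered 1 and −0.56 per miRNA read without young replicate 1. miR-155 was −0.59, −0.35, −0.87 and −0.58 under the same settings other than limma-voom, and miR-223 was −0.014 per miRNA read without the libraries numbered 1. Leaving out 1 library gave −0.21 to 0.43 for miR-150 and −0.053 to 0.23 for miR-155.

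In old against young without the libraries numbered 1, miR-142a was 0.24 with TMM, 0.32 per clean read and 0.28 per miRNA read, and 0.34 per miRNA read without young replicate 1. miR-146a was 0.013 and miR-223 0.085 per clean read without the libraries numbered 1. miR-150 was −0.0068 per miRNA read, −0.052 and −0.10 without the libraries numbered 1 (TMM and per miRNA read) and −0.45 per miRNA read without young replicate 1. Leaving out 1 library gave −1.85 to 0.62 for miR-142a, −0.41 to 0.21 for miR-146a, −0.27 to 0.25 for miR-150 and −1.03 to 0.19 for miR-223.

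In curcumin against young, miR-142a was 0.14 by limma-voom, 0.19 both with the replicate block and with the number 1 term, and 1.34, 1.72 and 0.44 without these libraries (TMM, per clean read, per miRNA read), and 0.63 per miRNA read without young replicate 1. miR-223 was 0.0032 per clean read, 0.22 by limma-voom, 0.043 with only the 2 groups, 0.25 with the replicate block, 0.24 with the term, 0.85 and 1.23 without these libraries (TMM, per clean read), and 0.13 per miRNA read without young replicate 1. miR-150 was −0.57 per miRNA read, −0.28 with miRNAs alone under TMM, and −0.74 and −1.0 per miRNA read without the libraries numbered 1 and without young replicate 1, where miR-155 was −0.33 and −0.39. Leaving out 1 library gave −1.03 to 1.36 for miR-142a, −0.21 to 0.43 for miR-150 and −0.28 to 0.86 for miR-223. Of the other values of the 6, 380 kept their sign and side of the threshold, the 3 of miR-142a by DESeq2 kept their sign, and 6, of miR-142a and miR-146a, passed it without the libraries numbered 1.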
